A study of Mus musculus with 10 samples.

Results

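Ifitm1, Ifitm2, Ifitm3 and Ifitm6, which encode interferon-induced transmembrane proteins, and Bst2, which encodes tetherin, were followed in neutrophils from grafted mouse squamous cell carcinomas. They were taken from the deposited count table as the 5 rows whose Ensembl identifiers carry these symbols in GENCODE M21, out of 55385 mouse genes in the table. All 5 were present and passed the filter on low counts. The neutrophils were Tomato+ cells of CatchupIVM-red hosts, in which a red fluorescent reporter is tied to the neutrophil gene Ly6g. All 4 groups share this host, and the sample descriptions carry C57 in the name of every library and GFP in those of the control graft. The control group carried tumours of the parental cells with low Sox2 and the Sox2Hi group carried tumours of cells with high Sox2, a stem cell transcription factor. Naive tumours were untreated, and treated tumours had received anti-PDL1 together with a CD40 agonist. Each graft had 3 naive and 2 treated libraries, 10 in all. The design asks whether Sox2 in tumour cells limits how neutrophils answer to interferons. The labels do not give the host's age, the doses or the time after treatment, nor whether libraries came from separate animals, so the p-values measure only the spread between these libraries.

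Interferon-induced transmembrane proteins sit in the membranes of the cell surface and of endosomes, where they hinder the fusion of enveloped viruses with the cell. Ifitm3 is known best for restricting influenza virus, and Ifitm1, Ifitm2 and Ifitm6 are its relatives in the same gene cluster. Tetherin is a membrane protein that holds budding virus particles on the surface of the cell that made them. Type I and type II interferons bind receptors that signal through JAK kinases to STAT proteins, which turn on these and many other genes, and the IFITM genes are also expressed in cells without added interferon.

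The 4 Ifitm members lay in one cluster on chromosome 7 and Bst2 on chromosome 8 (GENCODE M21, GRCm38). Ifitm2 (ENSMUSG00000060591) ran from 140954837 to 140955987 on the minus strand, Ifitm1 (ENSMUSG00000025491) from 140967221 to 140969825 on the plus strand, Ifitm3 (ENSMUSG00000025492) from 141009586 to 141010770 on the minus strand and Ifitm6 (ENSMUSG00000059108) from 141015699 to 141017924 on the minus strand. Bst2 (ENSMUSG00000046718) ran from 71534255 to 71537456 on the minus strand of chromosome 8. The gap between Ifitm2 and Ifitm1 was 11233 bases, that between Ifitm1 and Ifitm3 39760 bases and that between Ifitm3 and Ifitm6 4928 bases.

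The sequences below are the stretches around the annotated starts of the 5 genes, shown because the members moved together after treatment and because interferon-regulated factors act at such sites. Each runs 5′ to 3′ on the gene's strand, from 250 bases before the RefSeq start (GRCm38.p6) to 30 bases after it. Capitals mark matches of the core of the interferon-stimulated response element, which is GAAA, any 2 bases and GAAA again, searched on both strands.
Ifitm1: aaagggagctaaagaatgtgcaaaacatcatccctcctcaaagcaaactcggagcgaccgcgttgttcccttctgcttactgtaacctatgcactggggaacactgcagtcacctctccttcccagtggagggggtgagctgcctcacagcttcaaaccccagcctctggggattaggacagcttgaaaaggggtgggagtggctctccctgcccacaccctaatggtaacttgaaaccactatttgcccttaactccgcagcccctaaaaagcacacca
Ifitm2: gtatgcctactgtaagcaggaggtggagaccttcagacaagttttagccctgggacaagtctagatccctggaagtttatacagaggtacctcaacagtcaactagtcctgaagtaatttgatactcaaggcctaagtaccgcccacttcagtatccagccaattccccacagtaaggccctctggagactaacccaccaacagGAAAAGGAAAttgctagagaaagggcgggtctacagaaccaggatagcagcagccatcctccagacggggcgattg
Ifitm3: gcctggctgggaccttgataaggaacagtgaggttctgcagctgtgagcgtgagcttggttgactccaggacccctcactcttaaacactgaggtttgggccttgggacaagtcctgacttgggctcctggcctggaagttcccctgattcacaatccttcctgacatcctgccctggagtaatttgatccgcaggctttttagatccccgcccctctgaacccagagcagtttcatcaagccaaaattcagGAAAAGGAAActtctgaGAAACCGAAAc
Ifitm6: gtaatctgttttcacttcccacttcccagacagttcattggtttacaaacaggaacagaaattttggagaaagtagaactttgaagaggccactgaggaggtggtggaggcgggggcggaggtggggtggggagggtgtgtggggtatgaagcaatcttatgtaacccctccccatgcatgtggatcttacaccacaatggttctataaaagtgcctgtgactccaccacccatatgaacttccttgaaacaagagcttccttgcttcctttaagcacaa
Bst2: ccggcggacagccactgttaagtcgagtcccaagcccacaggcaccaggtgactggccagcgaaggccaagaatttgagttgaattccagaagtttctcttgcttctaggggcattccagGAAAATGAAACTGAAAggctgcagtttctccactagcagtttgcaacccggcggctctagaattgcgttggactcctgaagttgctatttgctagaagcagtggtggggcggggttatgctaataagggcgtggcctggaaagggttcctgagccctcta
The windows lie at chr7:140967826-140968105 for Ifitm1, chr7:140955932-140956211 for Ifitm2, chr7:141010715-141010994 for Ifitm3, chr7:141016863-141017142 for Ifitm6 and chr8:71537443-71537722 for Bst2. The single RefSeq starts used for Ifitm1 and Ifitm6 lie inside the GENCODE gene, downstream of its first base.

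Of the 5 windows, those of Ifitm2, Ifitm3 and Bst2 held this core. Ifitm2 had 1 match, GAAAAGGAAA, 46 to 37 bases before the start. Ifitm3 had 2 matches just after its start, GAAAAGGAAA at bases 3 to 12 and GAAACCGAAA at bases 20 to 29. Bst2 had GAAAATGAAA from 130 to 121 bases before the start and GAAACTGAAA from 124 to 115 bases before it, which overlap. The windows of Ifitm1 and Ifitm6 held no match. The core was found in 1131 of 32851 RefSeq promoters of the table, which run from 250 bases before to 50 bases after each start, or 3.44%. A second motif, TTCNNNGAA, the core of the gamma-activated sequence bound by STAT proteins, was found in 2726 of them, or 8.3%. It occurred in Ifitm3 at bases 14 to 22, overlapping the second match of the first core, in Bst2 from 136 to 128 bases before the start, overlapping the first of its 2 matches, and in Ifitm6 from 10 to 2 bases before the start. Its letters read the same on both strands. These matches describe the letters in the windows, and no binding was measured.

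**Figure D1:**
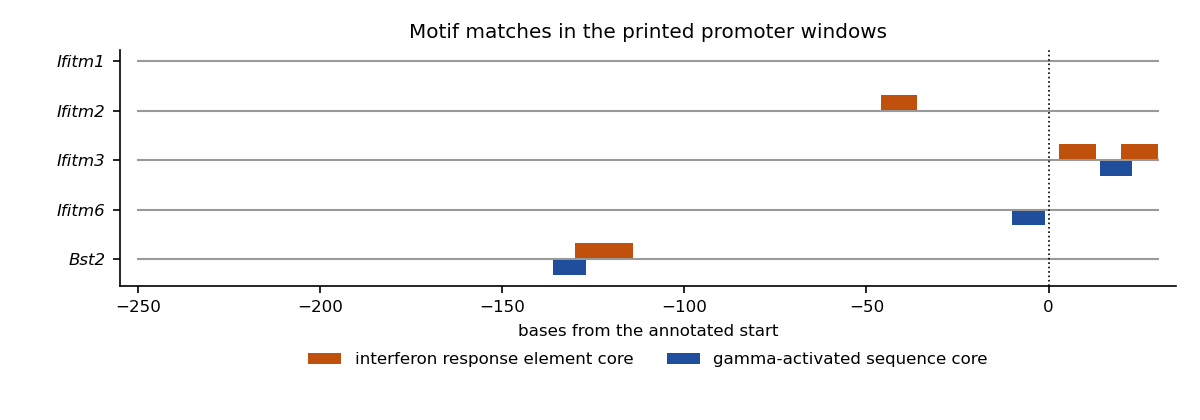
Positions of motif matches in the printed windows of the 5 genes, in bases from the annotated start (dotted line). Orange blocks above a line are the interferon response element core, merged for the 2 overlapping matches of Bst2, and blue blocks below a line are the gamma-activated sequence core. Ifitm1 has neither, Ifitm6 has 1 blue block only, and the orange blocks of Ifitm3 lie just after the start.

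Libraries held 13815734 to 22986193 counts. The normalization factors of the 2 control treated libraries stood apart, at 0.63 and 0.589 against 0.93 to 1.399 in the other 8, so a fold change that involves this group depends on how libraries are scaled. Levels are therefore given as CPM, the counts of a gene relative to the scaled library total, under an all-gene scaling (TMM factors from 29648 genes). They are compared with an expressed-gene scaling, whose TMM factors rest on 11274 genes averaging 5 CPM or more. Abundant genes, those averaging 100 CPM or more (1509), had a median log2 change with treatment in the control graft of 1.1 under the first and 0.55 under the second, and a median interaction of -1.2 and -0.38. Silent receptor genes gave an expected background of 1.58% and 1.74% of counts in the control treated libraries and 3.63% to 8.39% in the others. The neutrophil gene Ly6g, to which the reporter is tied, was read at 1.57 to 3.53 CPM in the naive libraries and 5.13 to 20.6 CPM in the treated ones. Sox2, which defines the tumour cells, stood at 0.57 to 1.76 CPM in the group means, of which 44.2% or more was expected background. Reads of the Y-linked gene Ddx3y were 4 to 8 in 4 libraries and 1007 to 6618 in 6, spread over all 4 groups, and a fit with this split as a term called the same numbers of members in every comparison. Over all genes that fit called fewer: 745 against 1070 with treatment in Sox2Hi, 204 against 554 between naive grafts and 3529 against 4076 between treated grafts.

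Ifitm2, Ifitm1 and Ifitm3 stood at higher levels per kilobase of exon than Ifitm6 and Bst2 in all 10 libraries. Exon length was that of all annotated exons of a gene merged, 1094 bases for Ifitm1, 655 for Ifitm2 and 678 for Ifitm3. The order of genes per kilobase depends on this choice. In control naive libraries Ifitm2 stood at 1920 ± 130 CPM per kb (SD, n = 3), Ifitm3 at 996 ± 230, Ifitm1 at 635 ± 120, Bst2 at 50.6 ± 5.6 and Ifitm6 at 43.2 ± 10. The libraries of Ifitm2 lay above those of the other members. Those of Bst2 and Ifitm6 overlapped, and the lowest Ifitm3 library (756) lay below the highest Ifitm1 library (767). In the naive Sox2Hi libraries the order was the same with no overlap between neighbours, at 2040 ± 240 CPM per kb for Ifitm2 (SD, n = 3), 858 ± 21 for Ifitm3, 612 ± 110 for Ifitm1, 61.2 ± 11 for Bst2 and 34 ± 14 for Ifitm6. After treatment in the control graft, levels were 5800 ± 410 CPM per kb for Ifitm2 (SD, n = 2), 3870 ± 150 for Ifitm1, 3060 ± 120 for Ifitm3, 460 ± 97 for Ifitm6 and 151 ± 15 for Bst2. Ifitm1 had passed Ifitm3 in this order and Ifitm6 had passed Bst2, with no overlap between the libraries of neighbouring genes. After treatment in the Sox2Hi graft the levels were 2750 ± 390 for Ifitm2, 1430 ± 36 for Ifitm3, 1390 ± 54 for Ifitm1, 133 ± 4.3 for Ifitm6 and 82 ± 5.3 for Bst2 (SD, n = 2), and Ifitm1 and Ifitm3 overlapped. Together the 5 members took 0.344% ± 0.024 of all counts in naive and 0.649% ± 0.024 in treated libraries of the control graft. Those of the Sox2Hi graft gave 0.287% ± 0.033 and 0.457% ± 0.029. These shares take the library total as their scale. On that scale the median gene changed by -1.36 log2 units with treatment in the control graft.

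Ifitm1, a member that acts mainly at the cell surface, was read at 839, 663 and 584 CPM in the 3 control naive libraries and at 4350 and 4120 CPM after treatment. Its Sox2Hi levels were 804, 612 and 593 CPM in naive and 1480 and 1570 CPM in treated libraries. Treated libraries lay above naive ones in both grafts, and the naive libraries of the 2 grafts overlapped.

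Ifitm2 had 1320, 1280 and 1160 CPM in control naive libraries and 3610 and 3990 CPM in control treated ones. Its Sox2Hi values were 1510, 1300 and 1200 CPM in naive and 1620 and 1980 CPM in treated libraries. The lowest treated library of the Sox2Hi graft was thus close to its highest naive library.

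Ifitm3 was at 689, 513 and 824 CPM in control naive and 2020 and 2130 CPM in control treated libraries. Naive Sox2Hi libraries had 593, 565 and 586 CPM, and treated ones 984 and 950 CPM. Under this scaling the 3 Sox2Hi naive libraries lay inside the range of the control naive ones. As a share of all counts they lay below them, at 0.0604% to 0.0643% against 0.0713% to 0.0986%.

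Ifitm6, the least abundant Ifitm member here, was at 49.5, 35.1 and 32.7 CPM in control naive libraries and at 478 and 354 CPM in control treated ones. Sox2Hi libraries had 45.1, 24.7 and 22.3 CPM when naive and 117 and 123 CPM when treated. Replicate 1 was the highest of the 3 naive libraries in both grafts.

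Bst2 was at 40.3, 46.2 and 50.5 CPM in control naive and 127 and 146 CPM in control treated libraries. In the Sox2Hi graft it was at 48.8, 66.7 and 50.3 CPM before and at 70.6 and 77.4 CPM after treatment. Treated libraries lay above naive ones in both grafts. This margin was narrow in the Sox2Hi graft, from 66.7 CPM in the highest naive to 70.6 CPM in the lowest treated library.

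**Figure D2:**
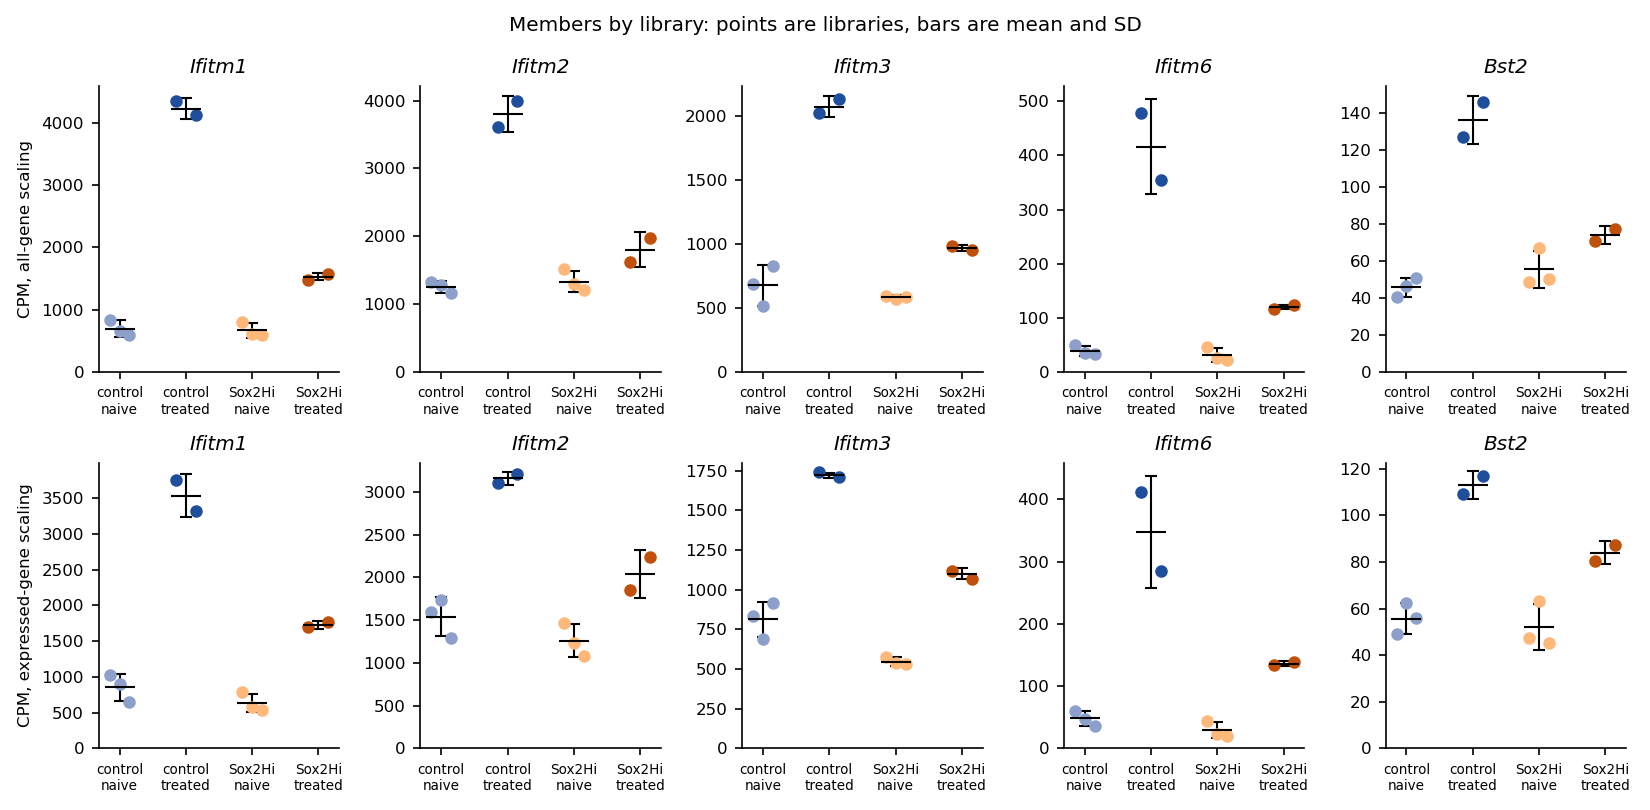
CPM of the 5 members in each of the 10 libraries (points), with the mean and SD of each group (n = 3 naive, n = 2 treated), under the all-gene scaling (upper panels) and the expressed-gene scaling (lower panels). The control treated libraries are the highest in every panel, and the Sox2Hi treated libraries lie between them and the naive libraries.

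In the control graft the treated libraries lay above the naive ones for 5 of 5 members, as they did for 23.7% of all genes tested and, with the expressed-gene scaling, 29.6%. All 5 rose in the edgeR quasi-likelihood test at an adjusted p-value under 0.05, against 18.7% of genes called higher. Ifitm6 rose most, with a log2 fold change of 3.41 (SE 0.3, adjusted p = 1.5e-05 in edgeR) or 10.6-fold, and Ifitm1 rose by 2.61 (SE 0.2, adjusted p = 8e-06) or 6.09-fold. Ifitm3, Ifitm2 and Bst2 rose by similar amounts, with log2 fold changes of 1.62 (SE 0.19), 1.6 (SE 0.17) and 1.58 (SE 0.19) and adjusted p-values of 8e-05, 4.2e-05 and 8.4e-05. The changes were smaller under the expressed-gene scaling, where all 5 were again called higher, against 24.1% of genes. There the log2 fold changes were 2.86 for Ifitm6, 2.05 for Ifitm1, 1.08 for Ifitm3, 1.04 for Ifitm2 and 1.02 for Bst2, with adjusted p-values from 0.00013 to 0.0014. The members' median log2 change was 1.62 and 1.08 by the 2 scalings, beside -0.3 and -0.18 over all genes tested and 1.1 and 0.55 over abundant genes, of which 74.4% and 66.3% were called in either direction.

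In the Sox2Hi graft treated libraries again lay above naive ones for 5 of 5 members, as for 22% of genes tested and, with the expressed-gene scaling, 37%. With the all-gene scaling, 2 of 5 were called higher, against 1.79% of genes. Ifitm6 rose by a log2 fold change of 1.97 (SE 0.29, adjusted p = 0.0063 in edgeR) or 3.91-fold and Ifitm1 by 1.19 (SE 0.2, adjusted p = 0.011) or 2.28-fold. The values of the other 3 were 0.73 (SE 0.19, adjusted p = 0.058) for Ifitm3, 0.43 (SE 0.17, adjusted p = 0.17) for Ifitm2 and 0.42 (SE 0.19, adjusted p = 0.22) for Bst2. With the expressed-gene scaling 5 of 5 were called higher, against 15% of genes, at 2.22 for Ifitm6, 1.45 for Ifitm1, 1 for Ifitm3, 0.7 for Ifitm2 and 0.69 for Bst2, with adjusted p-values from 0.0019 to 0.03. With 1 library left out that scaling gave 0.49 to 0.83 for Ifitm2 and 0.57 to 0.85 for Bst2. Ifitm2 and Bst2 were then not called in every fit, and not without Sox2Hi naive replicate 3, where 658 of 11232 genes were called. The members' median was 0.73 and 1 under the 2 scalings, beside 0.07 and 0.09 over all genes tested and -0.11 and 0.16 over abundant genes, of which 13.9% and 30.6% were called in either direction. Without Sox2Hi treated replicate 2, the all-gene scaling called 0 of 5 members and 82 of 32260 genes, against 1070 of 29648 with it, with Ifitm1 at 1.14 (adjusted p = 0.13) and Ifitm6 at 1.92 (adjusted p = 0.07). Ifitm3 was called too with the title's replicate number as a block, at 0.81 (adjusted p = 0.043 in edgeR), and in DESeq2 (0.0064), limma-voom (0.015), the Sox2Hi groups alone (0.02), library totals (0.035), background subtraction (0.0039) and without control naive replicate 2 (0.015) or 3 (0.033). In the same order these fits called 1012, 3215, 2676, 2756, 1789, 1405, 2492 and 1696 genes, against 1070 in the reported fit.

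**Figure D3:**
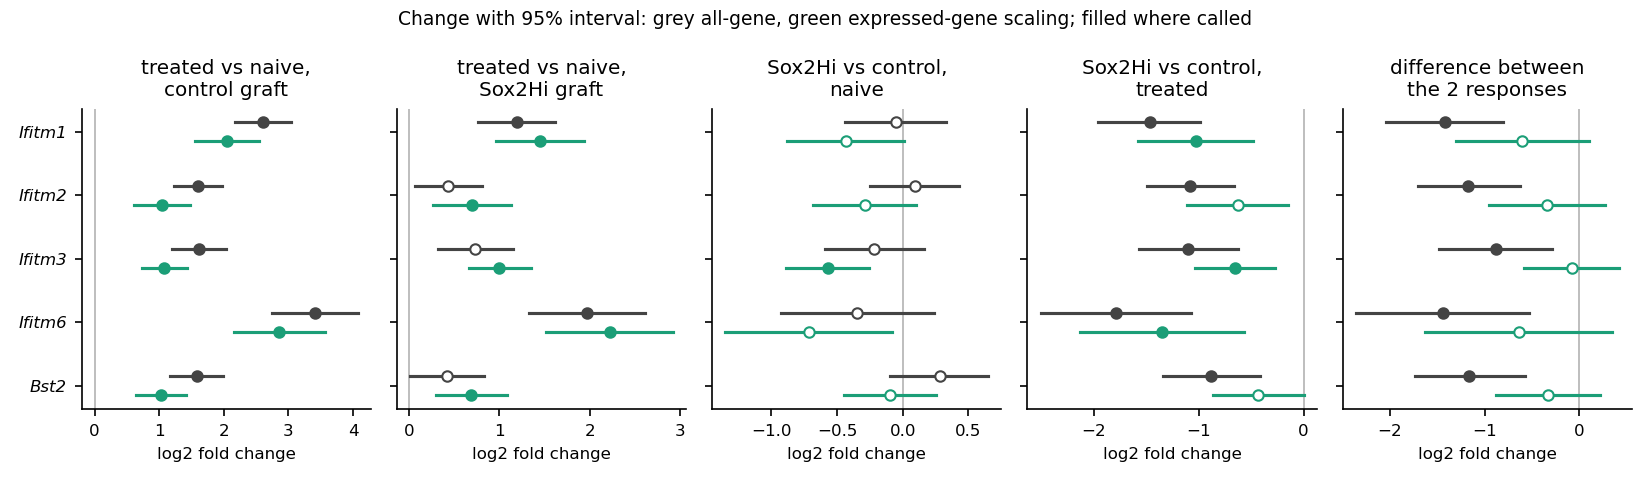
Log2 fold change of each member (point) with its 95% interval (line) in the 5 comparisons, under the all-gene scaling (grey) and the expressed-gene scaling (green), with filled points at an adjusted p-value under 0.05 in edgeR. All 10 points of the control graft panel are filled, while the difference between the 2 responses is filled under the all-gene scaling alone.

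Before treatment none of the 5 members was called different between the grafts under the all-gene scaling, against 1.87% of genes in either direction (492 higher and 62 lower). At an unadjusted p under 0.05 there was also none among the members, against 8095 of 29648 genes, and DESeq2 called none, against 4058 genes. The log2 differences, Sox2Hi minus control, were -0.35 for Ifitm6 (95% interval -0.93 to 0.24), -0.22 for Ifitm3 (-0.59 to 0.16), -0.05 for Ifitm1 (-0.44 to 0.33), 0.09 for Ifitm2 (-0.25 to 0.43) and 0.28 for Bst2 (-0.1 to 0.65). With the expressed-gene scaling Ifitm3 was lower in Sox2Hi by 0.57 on the log2 scale, a value of -0.57 (SE 0.14, adjusted p = 0.025 in edgeR), with 814 ± 110 CPM in control and 547 ± 26 CPM in Sox2Hi libraries (SD, n = 3) that did not overlap. That scaling called 11.9% of genes lower and left 21.8% of genes with all Sox2Hi naive libraries below the control ones. With 1 library left out that scaling called Ifitm3 in 3 of 10 fits (adjusted p = 0.035 to 0.1 over the 10 in edgeR), and without Sox2Hi naive replicate 3 it called 4 of 11232 genes, 0 of them lower, against 1576 of 11274, 1339 of them lower. Between naive grafts the all-gene scaling called 3 to 2166 genes with 1 library left out, against 554. The signs of Ifitm2 and Bst2 turned under the expressed-gene scaling, to -0.29 and -0.1, and Ifitm1 and Ifitm6 stood at -0.43 and -0.71. When the title's replicate number entered that fit as a block, as the naive libraries deviated together by number, Ifitm6 was called too, at -0.75, and Ifitm3 stood at -0.56, both with an adjusted p of 0.018 in edgeR, among 1572 of 11274 genes called lower.

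After treatment all Sox2Hi libraries lay below all control libraries for 5 of 5 members, under both scalings and with library totals alone, as they did for 27.3% of genes by the first scaling and 26.3% by the second. With the all-gene scaling 5 of 5 were called lower in Sox2Hi, against 9.57% of genes. The log2 differences were -1.79 for Ifitm6 (SE 0.33, adjusted p = 0.0093 in edgeR), -1.47 for Ifitm1 (SE 0.22, adjusted p = 0.0071), -1.1 for Ifitm3 (SE 0.21, adjusted p = 0.011), -1.08 for Ifitm2 (SE 0.19, adjusted p = 0.0085) and -0.88 for Bst2 (SE 0.21, adjusted p = 0.021). With the expressed-gene scaling 3 of 5 were called lower, against 5.87% of genes: Ifitm6 at -1.35 (adjusted p = 0.024), Ifitm1 at -1.03 (adjusted p = 0.019) and Ifitm3 at -0.65 (adjusted p = 0.026). Ifitm2 stood at -0.63 (adjusted p = 0.062) and Bst2 at -0.43 (adjusted p = 0.14). The members' median was -1.1 and -0.65 under the 2 scalings, beside 0.13 and 0.04 over all genes tested and -0.83 and -0.38 over abundant genes, of which 60.8% and 24.7% were called in either direction. The call rests on 2 libraries a side. Without Sox2Hi treated replicate 1 the all-gene scaling called 0 of 5 members and 66 of 32277 genes, against 4076 of 29648 with it. Without Sox2Hi treated replicate 2 or control treated replicate 2 it called 3 members, among 1539 and 1445 genes. The 4 treated libraries fitted by themselves gave 0 members, at adjusted p-values of 0.066 to 0.074, and 2 of 25287 genes. With the expressed-gene scaling 0 members were called without any 1 of the 4 treated libraries (Ifitm1 at an adjusted p of 0.053 to 0.11 in edgeR, Ifitm3 at 0.054 to 0.11 and Ifitm6 at 0.052 to 0.14). A fit without a treated library leaves that group with 1, which is assumed to vary like the other groups.

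Whether the change with treatment was smaller in the Sox2Hi graft than in the control graft depended on the scaling. With the all-gene scaling the interaction, the log2 change in Sox2Hi minus that in control, was called lower for 5 of 5 members, against 16.2% of genes called lower. It was -1.44 for Ifitm6 (SE 0.42, adjusted p = 0.027 in edgeR), -1.42 for Ifitm1 (SE 0.28, adjusted p = 0.0066), -1.17 for Ifitm2 (SE 0.24, adjusted p = 0.0079), -1.16 for Bst2 (SE 0.27, adjusted p = 0.012) and -0.88 for Ifitm3 (SE 0.27, adjusted p = 0.034). The members' median was -1.17, beside -1.2 over abundant genes, of which 76.6% were called in either direction, and 0.22 over all genes tested. With each library left out in turn, Ifitm3 lost its call in 8 of 10 fits (adjusted p = 0.059 to 0.091 in edgeR) and Ifitm6 in 4 of 10 (0.051 to 0.086), and the count of members was 3 to 5. With the expressed-gene scaling 0 of 5 were called, against 2.84% of genes called lower. At an unadjusted p under 0.05 there were likewise 0 members, among 3669 of 11274 genes in either direction. The values were then -0.64 for Ifitm6 (95% interval -1.63 to 0.35), -0.6 for Ifitm1 (-1.3 to 0.1), -0.34 for Ifitm2 (-0.95 to 0.27), -0.33 for Bst2 (-0.88 to 0.22) and -0.08 for Ifitm3 (-0.58 to 0.42). Library totals alone called 0 members and 312 of 29648 genes lower (12189 higher), and subtraction of the background called 0 members and 213 of 21434 genes lower (1516 higher).

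Ratios of 2 members within a library need no scaling, and they changed with treatment. The reads of Ifitm1 per read of Ifitm2, as a log2 ratio, were -0.66, -0.95 and -0.99 before and 0.27 and 0.04 after treatment in the control graft. In the Sox2Hi graft they were -0.91, -1.08 and -1.02 before and -0.13 and -0.34 after it. Treated libraries lay above naive ones in both grafts, by 0.9 on average (two-sided exact permutation test within grafts over 100 arrangements, p = 0.01, the smallest it can give, adjusted p = 0.033 over 20 ratio tests). Ifitm1 also gained on Ifitm3, by 0.72, with the same p. Ifitm6 gained on every other member: treatment moved the log2 ratio of Ifitm6 to Bst2 by 1.72, and moved Ifitm1 to Ifitm6 by -0.82, Ifitm2 to Ifitm6 by -1.71 and Ifitm3 to Ifitm6 by -1.54 (exact permutation p = 0.01 and adjusted p = 0.033 for each). In all, 6 of 10 pairs passed.

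The other pairs did not pass. Ifitm1 to Bst2 moved by 0.91 (exact permutation p = 0.02, adjusted p = 0.057). Ifitm2 to Bst2 moved by 0.01 (p = 0.93), Ifitm3 to Bst2 by 0.18 (p = 0.33) and Ifitm2 to Ifitm3 by -0.17 (p = 0.34), by the same exact test. The members so fell into an order of relative gain with treatment, Ifitm6 ahead of Ifitm1 and Ifitm1 ahead of Ifitm2 and Ifitm3, while Ifitm2, Ifitm3 and Bst2 were not separated from each other. Between grafts 0 of 10 pairs passed the exact permutation test within treatments over 120 arrangements. The lowest p was 0.05 (adjusted p = 0.1), for Ifitm6 to Bst2 at -0.78, Ifitm2 to Ifitm6 at 0.59 and Ifitm1 to Ifitm6 at 0.32. The Ifitm6 to Bst2 ratio was 0.3, -0.4 and -0.63 in naive and 1.92 and 1.28 in treated control libraries, and -0.11, -1.43 and -1.17 in naive and 0.73 and 0.67 in treated Sox2Hi libraries. The naive libraries of the grafts overlapped. This permutation does not use the title numbers of the naive libraries. With graft labels exchanged within same-numbered naive pairs, a test chosen after seeing the data, 5 pairs had the smallest p it can give over 48 arrangements (exact permutation p = 0.042, adjusted p = 0.069 over 20 tests). With the treatment tests as they stood, none could have passed unless all 10 pairs reached that p, so this says nothing of whether the ratios differ. Within the naive pairs the ratio of Ifitm3 to Bst2 differed by -0.49, -0.39 and -0.49 (Sox2Hi minus control), that of Ifitm2 to Ifitm6 by 0.32, 0.52 and 0.6 and that of Ifitm6 to Bst2 by -0.41, -1.03 and -0.54, each of one sign. With 1 library left out the smallest p the test can give is 0.017 or 0.025, and 0 pairs passed for treatment in 9 of 10 such tests and 6 without Sox2Hi naive replicate 1. Passing at a p of 0.017 needs 7 of the 20 tests at that p.

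**Figure D4:**
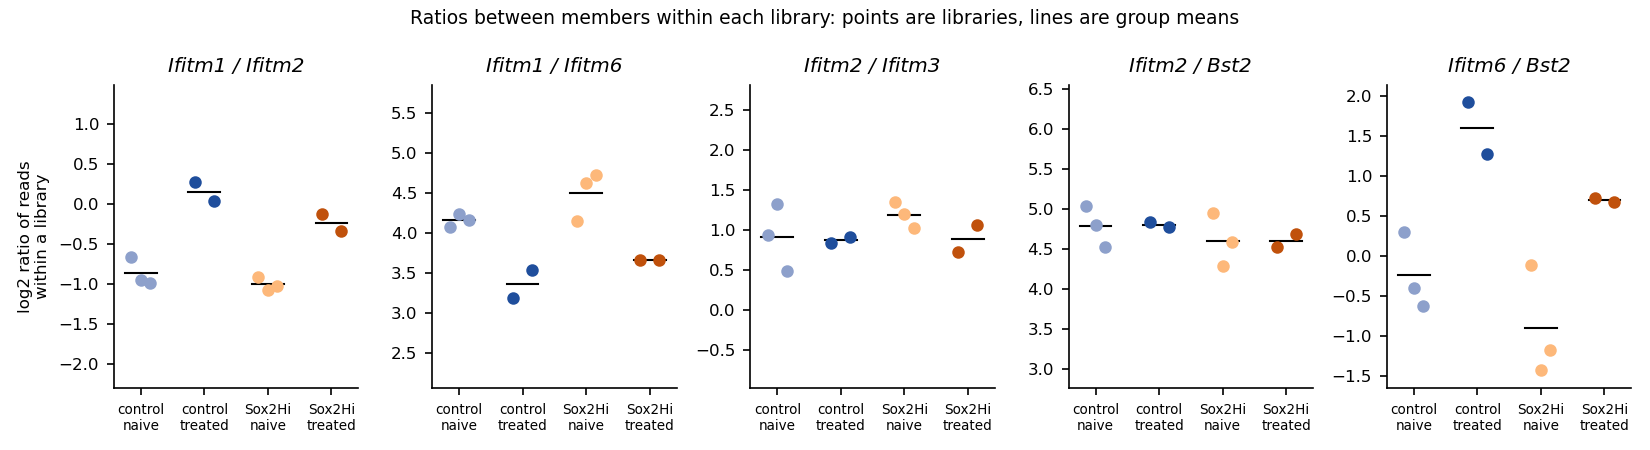
Log2 ratio of the reads of 2 members in each library (points) with group means (lines), for 5 of the 10 pairs, all panels spanning the same range. Treated libraries are separate from naive ones for Ifitm1 to Ifitm2, Ifitm1 to Ifitm6 and Ifitm6 to Bst2, and mixed with them for Ifitm2 to Ifitm3 and Ifitm2 to Bst2.

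Among the 4 Ifitm members, counted per kilobase, the share of Ifitm1 was 17.6% ± 2.5 before and 29.4% ± 1.8 after treatment in the control graft, and 17.2% ± 1.1 and 24.5% ± 0.85 in the Sox2Hi graft (SD, n = 3 naive and n = 2 treated). That of Ifitm2 was 53.5% ± 4.4 and 44% ± 2.2 in the control graft and 57.5% ± 1.2 and 48.1% ± 3.4 in the Sox2Hi graft. Ifitm3 held 27.7% ± 6 and 23.1% ± 0.35 in the control graft and 24.4% ± 2.2 and 25.1% ± 2.5 in the Sox2Hi graft. Ifitm6 held 1.2% ± 0.2 and 3.5% ± 0.81, and 0.94% ± 0.28 and 2.33% ± 0.092. Ifitm2 held the largest of these shares in all 10 libraries. The shares depend on the exon length used. In reads alone Ifitm1 exceeded Ifitm2 in the control treated libraries, at 1.21 and 1.03 reads per read of Ifitm2.

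The members share sequence with other genes to different degrees, which bears on how reads are assigned. Of the 31-base words of the annotated transcripts, 55.5% of those of Ifitm2 occur in another gene, 38.1% in Gm45717, a gene that overlaps Ifitm2 on the same strand. Gm45717 itself was read at 1.64 to 3.37 CPM in the group means. For Ifitm3 the share was 20.5% and for Ifitm1 11.6%, in each case most often with the predicted gene Gm7676, while Ifitm6 and Bst2 shared none. The level of Ifitm2, and of Ifitm1 and Ifitm3 to a lesser degree, is therefore uncertain by what the counting tool gave to these copies. The other Ifitm genes were at low levels: group means were 1.92 to 5.23 CPM for Ifitm5, 1.61 to 2.53 CPM for Ifitm7 and 5.41 to 7.98 CPM for Ifitm10, and the expected background was up to 43% of the reads of Ifitm7. Ifitm5 was called in all 5 comparisons by the all-gene scaling, at 0.58 with treatment in control, -1.44 in Sox2Hi, 0.95 between naive grafts, -1.07 between treated grafts and -2.03 for the interaction (adjusted p = 0.0046 to 0.046 in edgeR), and was not tested by the expressed-gene scaling. Ifitm7 and Ifitm10 were called in none by the all-gene scaling, and Ifitm10 fell with treatment in control by the expressed-gene scaling, at -0.91 (adjusted p = 0.041). Mvb12a, the neighbour of Bst2 on the side of higher coordinates and a subunit of a membrane sorting complex, stood at 9.6 to 15.2 CPM and was called in no comparison under the all-gene scaling.

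Most genes of an antiviral list rose with treatment too. Of 36 antiviral interferon-stimulated genes, 34 rose with treatment in the control graft by the all-gene scaling and 32 of 35 tested by the expressed-gene scaling, with medians of 2.11 and 1.55. Isg15, a ubiquitin-like modifier, rose by 2.61 and 2.03, Rtp4, a receptor transport protein, by 2.94 and 2.38, and Ifi47, an interferon-induced GTPase, by 3.42 and 2.85 under the 2 scalings. In the Sox2Hi graft 24 of 36 and 30 of 35 rose, with medians of 1.17 and 1.46. Isg15 rose by 1.5 and 1.76, Rtp4 by 1.85 and 2.11 and Ifi47 by 2.4 and 2.67. Between treated grafts 21 of 36 and 4 of 35 were lower in Sox2Hi by the same 2 scalings, and 0 and 3 were lower between naive grafts. The interaction was called lower for 19 of 36 and for 0 of 35. The medians of the 5 members lay below those of this list with treatment in both grafts.

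**Figure D5:**
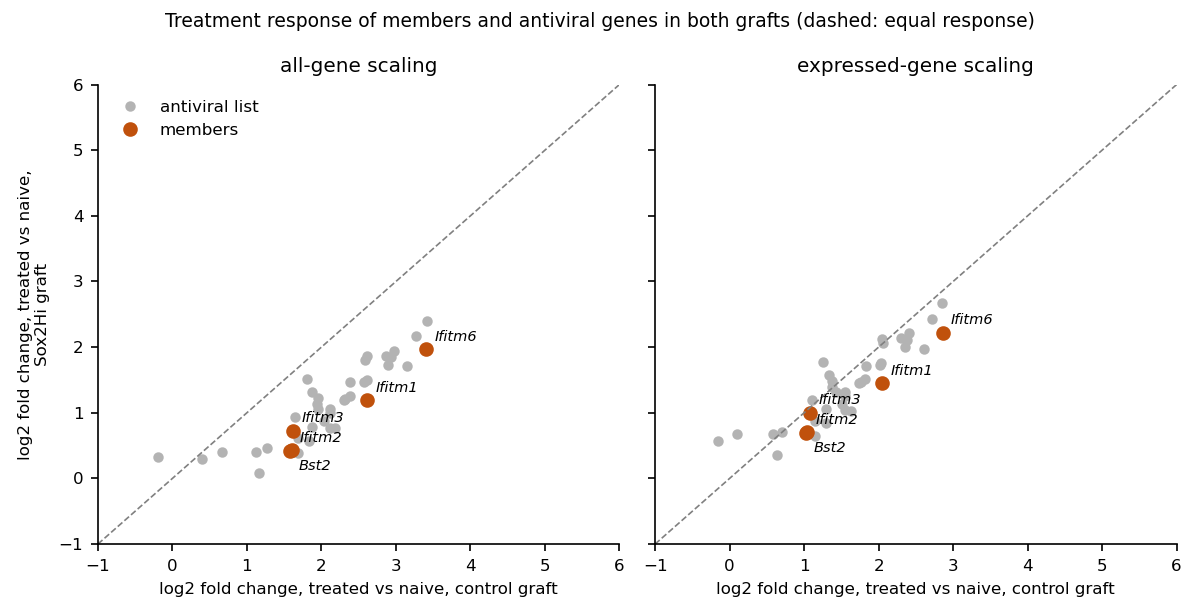
Log2 fold change with treatment in the control graft (x axis) against that in the Sox2Hi graft (y axis), for the 5 members (orange) and the antiviral list (grey, 36 genes left and 35 right), with the line of equal change dashed. Members and list lie below the line under the all-gene scaling, other than 1 gene of the list, and closer to it under the expressed-gene scaling.

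Of 14 genes that carry interferon signals, 13 rose with treatment in the control graft by the first scaling and 12 of 13 by the second, and 3 of 14 and 7 of 13 rose in the Sox2Hi graft. The interferon gamma receptor gene Ifngr1 rose by 1.74 and 1.18 in control, and stood at 0.38 (adjusted p = 0.34 in edgeR) and 0.64 (adjusted p = 0.083) in Sox2Hi. Jak1, a kinase of the receptors, rose by 1.37 and 0.82 in control and stood at 0.01 (adjusted p = 0.99) and 0.27 (adjusted p = 0.26) in Sox2Hi. Of 8 genes for enzymes that modify IFITM proteins and for proteins that bind them, 4 rose and 1 fell with treatment in the control graft by the first scaling, and 2 rose and 2 fell by the second. The tetraspanin gene Cd9 rose by 1.2 and 0.65 and Vapa, an endoplasmic reticulum membrane protein, by 1.08 and 0.55. Zdhhc20, a palmitoyltransferase of IFITM3, stood at 0.25 (adjusted p = 0.37) and -0.3 (adjusted p = 0.17), and Nedd4, a ubiquitin ligase named here after its values were seen, fell by 1.31 and 1.82. In the Sox2Hi graft none of the 8 was called in either direction by the first scaling, and 0 rose and 1 fell by the second.

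By Pearson correlation of log2(CPM + 1) over the 10 libraries, the closest 3 genes of each member were found among 7056 averaging 10 CPM or more, and no gene was shared between members under the all-gene scaling. These libraries share groups and scaling, so the coefficients describe the pattern over 4 groups. Closest to Ifitm1 were S100a9 (r = 0.998), a granulocyte calcium-binding protein, Slfn1 (0.997) and Mcemp1 (0.996). Closest to Ifitm2 were Fcer1g (0.998), the common chain of Fc receptors, Pdcd1lg2 (0.997) and Il1f6 (0.996). Ifitm3 was closest to Casp1 (0.993), the inflammasome protease, Ifi211 (0.987) and H2-M3 (0.976). Ifitm6 was closest to Wfdc21 (0.997), Rtp4 (0.995) and Wfdc17 (0.994), and Bst2 to Stat2 (0.986), a signal carrier of type I interferon, Idnk (0.984) and Hist3h2a (0.982). Under the expressed-gene scaling 9 of these 15 genes were still among the closest 3, and S100a9 and Slfn1 were among the closest 3 of both Ifitm1 and Ifitm6.

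Markers of neutrophils and of other cells moved with the same contrasts. The 20 neutrophil markers summed to 1.57% to 2.47% of counts in naive and 3.32% to 3.45% in treated control libraries, and to 1.62% to 2.19% and 2.08% to 2.44% in the Sox2Hi graft. By the all-gene scaling 20 of 20 were called higher with treatment in the control graft and 9 of 20 in the Sox2Hi graft, and by the expressed-gene scaling 18 and 12. They were called lower in Sox2Hi between treated grafts for 14 of 20 and 8 of 20, and for the interaction for 17 of 20 and 1 of 20, by the same 2 scalings. S100a9 rose by 3.17 and 2.61 in control and by 1.35 and 1.61 in Sox2Hi under the 2 scalings. The 12 keratinocyte and tumour epithelium markers summed to 0.249% to 0.519%, 0.0967% to 0.161%, 0.418% to 0.601% and 0.192% to 0.318% in these 4 groups in the same order, and 2 of 12 fell with treatment in each graft by the all-gene scaling, against 7 in the control and 4 in the Sox2Hi graft by the expressed-gene scaling. Over all genes 4533 of 29648 and 3736 of 11274 fell in control by the 2 scalings, and 539 and 741 in Sox2Hi. The 12 macrophage and dendritic cell markers summed to 0.0733% to 0.108%, 0.0402% to 0.073%, 0.12% to 0.157% and 0.0667% to 0.119%, the 10 fibroblast and endothelial markers to 0.0332% to 0.0905%, 0.008% to 0.00973%, 0.0571% to 0.0843% and 0.0112% to 0.0352%, and the 6 erythroid markers to 0.0628% to 0.166%, 0.00381% to 0.0227%, 0.0308% to 0.0694% and 0.00255% to 0.00544%. Of the fibroblast and endothelial markers, 4 of 10 fell with treatment in control and 0 of 10 in Sox2Hi by the all-gene scaling, and 6 and 4 of the 7 tested by the expressed-gene scaling. The 11 T and NK cell markers summed to 0.00486% to 0.0083%, 0.00698% to 0.0215%, 0.00356% to 0.014% and 0.0105% to 0.0177%, and the 8 B and plasma cell markers to 0.02% to 0.0281%, 0.0165% to 0.0207%, 0.0392% to 0.104% and 0.0168% to 0.0252%. With treatment in the control graft 5 of 11 T and NK cell markers rose by the all-gene scaling and 3 of 6 tested by the expressed-gene scaling, and 2 of 11 and 1 of 6 rose in Sox2Hi. Of the macrophage and dendritic cell markers, 5 of 12 and 1 of 10 tested rose in the control graft and 0 and 1 in Sox2Hi, and 2 of 12 and 0 of 10 were lower for the interaction. No marker was at 0 in all libraries. In bulk RNA, a change in the share of cells that carry a transcript and a change in its RNA per cell cannot be told apart, and the part of these markers in the members' changes was not tested.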

How the data were processed

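RNA from 10 neutrophil samples was extracted with a microprep kit and made into libraries with a low-input kit, per the labels' protocols. The authors deposited 1 table of estimated counts per gene, not normalized, and the submitters' processing notes name kallisto 0.44.0 and the build mm10. The values were whole already, so rounding changed none, and the 4 with more than 6 digits end in 0. The annotation is not given in the sources used here, so symbols and coordinates are those of GENCODE M21 (55144 identifiers matched and 241 did not). The 96 entries that are not mouse genes, at most 0.00277% of a library, were left out, and no column was left unmatched.

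A model of the 4 groups over all 10 libraries was fitted in edgeR 4.0.16 (R 4.3.3) after filterByExpr, and tested by quasi-likelihood with Benjamini-Hochberg adjustment over all genes, calling at 0.05. The common biological coefficient of variation was 0.232. Standard errors are the log2 fold change over the square root of F. Log2 ratios of reads used a pseudocount of 0.5. Promoters matched 5 of 5 members in RefSeq. Besides the members, the text names the 3 genes most like each, the other Ifitm genes, adjacent coding genes (Gm17387 and Ccdc194 were under 1 CPM), Ly6g, Sox2 and the most abundant 3 genes of a list, 1 of which is not reported here. The members, lists and tests were chosen with earlier results of these data known.

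Replicates differed by more than sampling noise (chi-square of at least 12.5 per degree of freedom). Alternatives used DESeq2 1.42.0, limma-voom 3.58.1 with quality weights, RLE factors, library totals, no filter, replicate blocks, background subtraction from 1466 silent receptor genes, a Ddx3y term, the compared groups only, and 1 library fewer. The fit was tested on simulated data. Deviations from group means correlated at 0.273, 0.325 and 0.474 between naive libraries with the same title number, which pairs them by this check alone, and at -0.28 to 0.246 between naive and treated ones.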

Additional observations from a re-analysis of the deposited data

Results flagged for a closer look

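The difference between the grafts in the log2 change with treatment (Sox2Hi minus control) passed the edgeR interaction test for every member under the all-gene scaling with all 10 libraries: -1.42 for Ifitm1, -1.17 for Ifitm2, -0.88 for Ifitm3, -1.44 for Ifitm6 and -1.16 for Bst2. This test called 16.2% of all genes lower by the same scaling. Of abundant genes it called 76.6% in either direction, and their median was -1.2, beside -1.17 for the members. Under that scaling Ifitm3 lost the call in 8 of 10 fits with 1 library left out and with all genes with a count (adjusted p = 0.053), and Ifitm6 in 4 of 10 and in limma-voom (adjusted p = 0.055). Treated libraries lay above naive ones in both grafts for each of the 5 genes. By the all-gene scaling 23.7% of genes did so in the control graft and 22% in the Sox2Hi graft, and 29.6% and 37% by the expressed-gene scaling. The interaction values under the expressed-gene scaling were -0.6, -0.34, -0.08, -0.64 and -0.33 in the same order and none passed, against 2.84% of genes called lower. Groups of 2 or 3 libraries are too small for a test of 1 outlying value within a group, so none was made.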

How the results depend on the processing

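With treatment in the control graft all 5 members were called under each of 11 other settings, which called 6456 to 21640 genes in either direction. They were also called with each naive library left out, among 7678 to 9848 genes by the all-gene scaling. With any 1 library left out their log2 fold changes were 1.44 or more by that scaling and 0.91 or more by the expressed-gene scaling. Counts of members called moved elsewhere. With treatment in Sox2Hi, 5 were called by the expressed-gene scaling, by that scaling with the replicate block by title number and by background subtraction, against 2 in the reported fit. Leaving out each library gave 0 to 3 (82 to 2492 genes called), or 3 to 5 under the expressed-gene scaling (194 to 3268 genes). Between naive grafts the expressed-gene scaling and background subtraction each called 1, and the expressed-gene scaling with the replicate block called 2 (among 1576, 533 and 1999 genes called). Leaving out libraries gave 0 (3 to 2166 genes), or 0 to 1 under the expressed-gene scaling (4 to 1955). Between treated grafts 3 were called by the expressed-gene scaling, 2 by library totals, 1 after background subtraction and 0 with the groups alone. Leaving out libraries gave 0 to 5 (66 to 5211 genes), or 0 to 4 under the expressed-gene scaling (334 to 2669). For the interaction 0 were called by the expressed-gene scaling with or without the block, by library totals and after background subtraction. Leaving out libraries gave 3 to 5 (3969 to 9263 genes), or 0 under the expressed-gene scaling (1512 to 2384). The ratio tests passing for treatment ran from 0 to 6 and for graft from 0 to 3 with a library left out, where the smallest reachable p rises, and pairing the naive libraries by title number gave 0 for graft. The number of the 15 closest genes shared under the expressed-gene scaling was 9.

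The replicate block by title number called 3, 0, 5 and 5 members with treatment in Sox2Hi, between naive grafts, between treated grafts and for the interaction, and the number in the descriptions called 2, 0, 5 and 5. With the expressed-gene scaling the title block called 4 between treated grafts, among 3173 of 11274 genes. Over all 29648 genes these were 1012, 2282, 4773 and 8905 for the title block and 1408, 301, 3250 and 7372 for the descriptions, against 1070, 554, 4076 and 8149 in the reported fit. Library totals called 1789, 23, 10991 and 12501 of 29648, and background subtraction 1405, 533, 739 and 1729 of 21434.

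Reversals fell on 3 uncalled differences between naive grafts and on 1 called interaction. Between naive grafts Ifitm1 (-0.05) became 0.01 in DESeq2 and with RLE factors, 0.05 with all genes with a count, and -0.21 to 0.1 with a library left out (-0.61 to -0.29 under the expressed-gene scaling). Ifitm2 (0.09) became -0.29 under the expressed-gene scaling, -0.16 with library totals, -0.31 after background subtraction, -0.28 with the expressed-gene scaling and replicate block, and -0.01 to 0.16 with a library left out (-0.41 to -0.12 under the expressed-gene scaling, with -0.27 and -0.19 without Sox2Hi naive replicate 2 or 3 and -0.2 without a control treated library or Sox2Hi treated replicate 2). Bst2 (0.28) became -0.1 under the expressed-gene scaling, -0.12 after background subtraction and -0.11 with the expressed-gene scaling and block, and 0.12 to 0.36 with a library left out (-0.26 to 0.06 under the expressed-gene scaling, with -0.19 without control naive replicate 1 and -0.04 without Sox2Hi naive replicate 1). The interaction of Ifitm3 (-0.88, called) became 0.1 with library totals. Of 520 values under settings listed at the outset 438 kept direction and side of the threshold, 54 lost the call, 15 gained it and 13 reversed. Of 275 added after seeing the data (the expressed-gene scaling with the block or with a library left out) these were 139, 86, 29 and 21. The causes were not tested. The least-read member, Ifitm6, had at least 399 reads.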
